A study of Mus musculus with 20 samples.

Results

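The genes described here are 10 that mark scar formation in the liver and the cells that make the scar, taken by name from the liver table: Col1a1, Col1a2, Col3a1, Postn, Thbs1, Timp1, Lox, Vim, Acta2 and Des. All 10 had a row among the 24972 gene rows of that table. Expression was measured by RNA sequencing in 14 libraries of total mouse liver and in 6 libraries of RAW264.7, a mouse cell line that resembles macrophages. The liver groups were WT on alcohol diet (n = 4), WT on control diet (n = 4), RageΔMye on alcohol diet (n = 3) and RageΔMye on control diet (n = 3), after 6 weeks of feeding. The cell groups were HMGB1 in its [O] form complexed with IL1β (n = 3) and BSA (n = 3), for 6 hours. By its name RageΔMye lacks Ager, which encodes RAGE, in the myeloid lineage, so that other liver cells would keep the gene. The labels call every library male, and they name neither the Cre driver, the strain nor the age. Nothing in them says that replicates came from separate animals or cultures, so p-values measure the spread between these samples, which may be technical.

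Values are TPM, in which reads are scaled to transcript length and to a fixed library total, so the read depth of each library is unknown. The libraries labelled RageΔMye and the RAW264.7 libraries stood apart from WT liver. WT libraries listed 15113 to 15599 genes above 0, those labelled RageΔMye 7596 to 8502 and those of RAW264.7 cells 8630 to 9231. In WT liver the commonest non-zero value lay between 0.0576 and 0.0835 TPM. It lay between 14.4 and 20.5 TPM in liver labelled RageΔMye, and between 9.85 and 13.4 TPM in the cell line. Each library labelled RageΔMye had 1 or 2 of 14 housekeeping genes at 0, a RAW264.7 library up to 2 and a WT library 0. Ager itself was listed at 93.1 to 166 TPM in the alcohol libraries and 101 to 128 TPM in the control libraries labelled RageΔMye, against 0.0194 to 0.478 TPM in WT. A loss in the myeloid lineage alone does not predict a higher level in whole liver, and the cause was not tested. Hepatocyte markers were abundant in every liver library. In WT the diet groups also differed in sex-linked transcripts. Xist was at 17.8 to 27.3 TPM in WT alcohol libraries and at 0.00165 to 0.135 TPM in WT control libraries, and 4 Y-linked genes together reached 0 to 0.0161 TPM in WT alcohol libraries against 11.3 to 16.6 TPM in WT control libraries. Diet and sex therefore cannot be told apart in any WT comparison below.

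Fibrillar collagens are the main load-bearing proteins of a liver scar. In a healthy liver the hepatic stellate cell stores vitamin A and makes little matrix, and after injury it turns into a contractile myofibroblast that secretes collagen, matricellular proteins and inhibitors of matrix proteases. TGF-beta and PDGF are classical signals for this change. Portal fibroblasts and vascular smooth muscle cells share several of the same genes, and Vim is also made by endothelial cells and leukocytes. In bulk liver, a change in the number of such cells and a change in RNA per cell cannot be told apart.

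All 10 genes had a higher mean in WT liver on alcohol diet than in WT liver on control diet, but they were low in both. On alcohol diet the order of mean TPM ran Vim (9.95 ± 1.86, SD, n = 4), Postn (6.47 ± 2.29), Col3a1 (3.23 ± 1.45), Col1a2 (2.44 ± 0.934), Timp1 (1.62 ± 0.898), Thbs1 (1.57 ± 0.720), Des (1.05 ± 0.105), Acta2 (0.834 ± 0.358), Col1a1 (0.749 ± 0.308) and Lox (0.0136 ± 0.00497). Neighbours in that order lay within their SDs of each other, except that Lox was far under Col1a1. On control diet the order ran Vim (6.41 ± 3.68, SD, n = 4), Postn (2.97 ± 0.316), Col3a1 (1.55 ± 0.955), Col1a2 (1.11 ± 0.555), Des (0.589 ± 0.218), Timp1 (0.459 ± 0.383), Acta2 (0.406 ± 0.137), Col1a1 (0.375 ± 0.301), Thbs1 (0.373 ± 0.174) and Lox (0.00466 ± 0.00407). There the SDs of Postn and Col3a1 did not meet either. Tests were run with limma on log2(TPM + 1), a scale on which the change of a low gene is understated, keeping genes whose mean reached 1 TPM in either group compared, with 0.05 as the limit on the adjusted p.

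**Figure D1:**
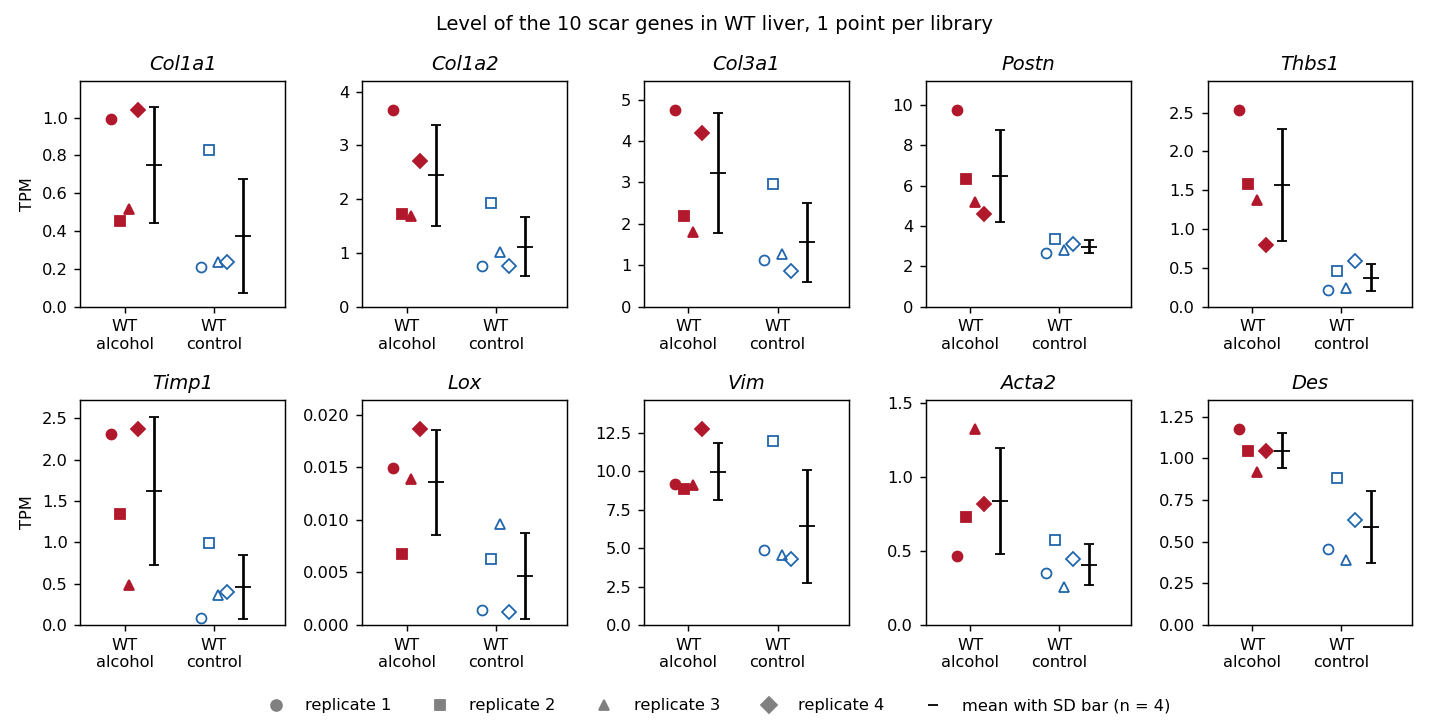
Level in TPM (y axis, linear, from 0, each panel on its own scale) of the 10 genes in each WT library, alcohol diet in filled red and control diet in open blue, with the mean and SD beside the points (n = 4 per group). For Postn, Thbs1 and Des every alcohol library lies above every control library, and control replicate 2 lies near the alcohol libraries for the 3 collagens, Timp1, Vim and Des.

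The fibrillar collagens came first in the comparison. Col1a1 and Col1a2 encode the chains of type I collagen, the main scar collagen, and Col3a1 encodes that of type III collagen, which accompanies it in early scars. Col1a2 was at 3.65, 1.73, 1.68 and 2.71 TPM in WT alcohol libraries and at 0.759, 1.92, 1.02 and 0.752 TPM in WT control libraries. Only control replicate 2 reached into the alcohol range, and the gene rose (log2 fold change 0.70, SE 0.22, adjusted p = 0.0322), with a ratio of mean TPM of 2.19. With no filter on low values Col1a2 did not pass (adjusted p = 0.0781). Col3a1 was at 4.74, 2.19, 1.81 and 4.19 TPM in WT alcohol libraries and at 1.13, 2.96, 1.27 and 0.851 TPM in WT control libraries. Again control replicate 2 exceeded the lower pair of alcohol libraries, and Col3a1 did not pass (0.73, SE 0.28, adjusted p = 0.0714). Col1a1 was at 0.991, 0.453, 0.515 and 1.04 TPM in WT alcohol libraries and at 0.207, 0.827, 0.234 and 0.233 TPM in WT control libraries. Its mean was under 1 TPM in both groups, so it was not among the genes tested, and an exact permutation test on the log2 scale gave p = 0.171, two-sided, where 4 against 4 can reach 0.0286. In every WT library Col3a1 was the highest of the 3 collagens and Col1a1 the lowest, while their ratios varied between libraries. The ratio of Col3a1 to Col1a1 was 3.51 to 4.84 in WT alcohol libraries and 3.58 to 5.45 in WT control libraries, and the ratio of Col1a2 to Col1a1 was 2.61 to 3.81 in WT alcohol libraries and 2.33 to 4.36 in WT control libraries. On mm10, Col1a1 lies on chromosome 11 (94936224 to 94953042), Col1a2 on chromosome 6 (4504814 to 4541544) and Col3a1 on chromosome 1 (45311538 to 45349706), each on the plus strand.

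Postn and Thbs1 gave the clearest separation between the diets. Both encode matricellular proteins: periostin binds collagen and helps its cross-linking, and thrombospondin 1 is known to activate latent TGF-beta. Postn (chromosome 3, 54361109 to 54391037, plus strand) was at 9.72, 6.35, 5.19 and 4.60 TPM in WT alcohol libraries and at 2.64, 3.34, 2.79 and 3.11 TPM in WT control libraries. The groups did not overlap, and Postn rose (log2 fold change 0.87, SE 0.19, adjusted p = 0.00708, ratio of means 2.18). Thbs1 (chromosome 2, 118111876 to 118127133, plus strand) was at 2.53, 1.58, 1.37 and 0.797 TPM in WT alcohol libraries and at 0.214, 0.452, 0.244 and 0.580 TPM in WT control libraries. These groups did not overlap either, and Thbs1 rose (0.87, SE 0.19, adjusted p = 0.00666), with a ratio of means of 4.21. Thbs1 was tested there only because of its alcohol mean, and in the limma fit with no filter its adjusted p was 0.0231. For both genes alcohol replicate 1 was the highest and alcohol replicate 4 the lowest of the alcohol libraries. An exon of Thbs1 overlaps an exon of Gm29233 on the opposite strand, and since the strand setting of the counting is not given in the sources used here, reads of that pair cannot be told apart.

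Turnover and cross-linking were represented by Timp1 and Lox. TIMP1 inhibits matrix metalloproteinases, and lysyl oxidase, the product of Lox, starts the covalent cross-linking of collagen. Timp1 (chromosome X, 20870166 to 20874735, plus strand) was at 2.31, 1.34, 0.478 and 2.37 TPM in WT alcohol libraries and at 0.0835, 0.994, 0.359 and 0.400 TPM in WT control libraries. Alcohol replicate 3 lay among the controls. The log2 fold change was 0.81 (SE 0.27, adjusted p = 0.0412, ratio of means 3.54), but Timp1 was tested only because of its alcohol mean, and it did not pass with no filter (adjusted p = 0.0959) or with a pseudocount of 0.01 (adjusted p = 0.0541). Lox was at 0.0150, 0.00678, 0.0139 and 0.0187 TPM in WT alcohol libraries and at 0.00145, 0.00631, 0.00965 and 0.00123 TPM in WT control libraries. That is too low for the test, and the exact permutation p was 0.0571, two-sided, with 1 alcohol library under the highest control. An antisense gene, AC161119.1, overlaps a Lox exon on the opposite strand.

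The cytoskeletal genes were Vim, Acta2 and Des. Vimentin and desmin are related intermediate filament proteins, desmin being a classical marker of rodent stellate cells, and Acta2 encodes the smooth muscle actin that marks myofibroblasts. Vim (chromosome 2, 13573927 to 13582826, plus strand) was at 9.18, 8.81, 9.08 and 12.7 TPM in WT alcohol libraries and at 4.86, 11.9, 4.56 and 4.29 TPM in WT control libraries. Without control replicate 2 the groups would not meet, and with it Vim did not pass (log2 fold change 0.66, SE 0.27, adjusted p = 0.0825). Acta2 (chromosome 19, 34241090 to 34255590, minus strand) was at 0.468, 0.730, 1.32 and 0.815 TPM in WT alcohol libraries and at 0.351, 0.576, 0.254 and 0.443 TPM in WT control libraries. It was under the level for testing, with an exact permutation p of 0.0571, two-sided, and only alcohol replicate 1 lay under the highest control. Des (chromosome 1, 75360329 to 75368579, plus strand) was at 1.18, 1.05, 0.920 and 1.04 TPM in WT alcohol libraries and at 0.458, 0.879, 0.391 and 0.629 TPM in WT control libraries. The groups did not overlap and Des rose (0.37, SE 0.12, adjusted p = 0.0323, ratio of means 1.78). Des, too, was tested only because of its alcohol mean, and in the limma fit with no filter its adjusted p was 0.0388. The antisense gene Gm15179 overlaps a Des exon.

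Of the 10 genes, 7 passed the filter on low values and 5 of these rose, where 13.3% of the 9747 genes tested in WT liver rose and 17.9% fell. Thbs1, Timp1 and Des passed the filter only through the alcohol group and had to differ to do so, so the count of 5 is not used as support. In a joint fit of all 14 liver libraries 2 of the 10 passed. In a fit with no filter, which tested all 10 among 17323 genes, 3 rose (Postn, adjusted p = 0.0243, Thbs1, adjusted p = 0.0231, and Des, adjusted p = 0.0388), where 8.30% of all genes rose. The median log2 fold change of the 10 in that fit was 0.68, beside 0.00074 over all its genes. Non-overlap of the diets with alcohol higher was seen for 3 of the 10, against 10.6% of the 17323 genes.

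**Figure D2:**
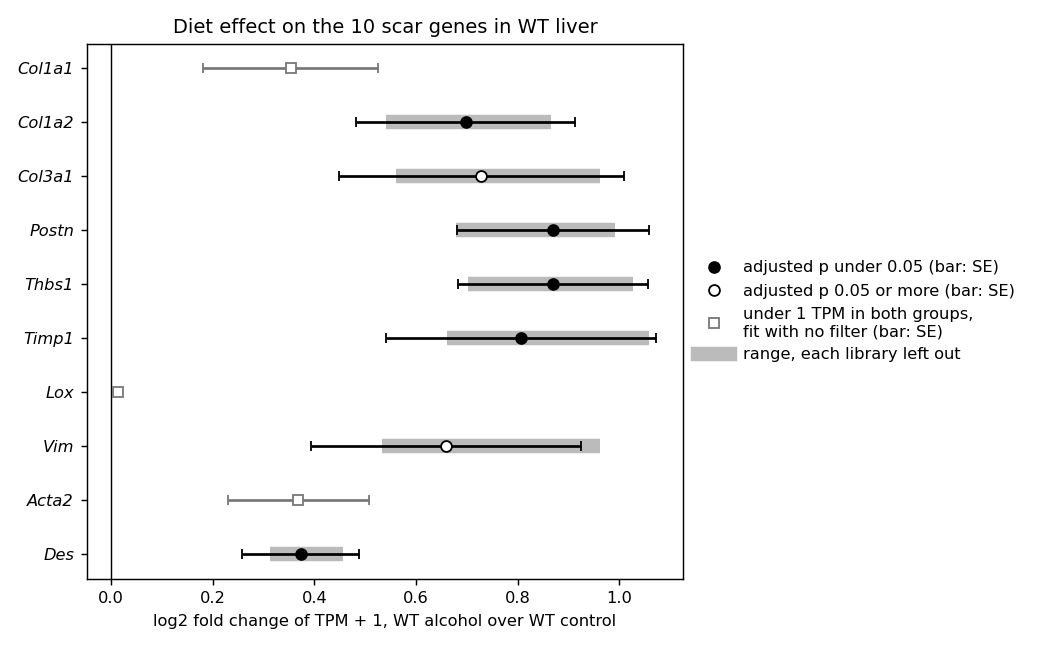
Log2 fold change of TPM + 1 (x axis, WT alcohol over WT control) of the 10 genes, with the SE as a thin bar and the range when each of the 8 libraries is left out as a grey band. Filled circles passed at adjusted p under 0.05 (Col1a2, Postn, Thbs1, Timp1 and Des), open circles did not (Col3a1 and Vim), and open grey squares come from the fit with no filter, since Col1a1, Lox and Acta2 were under 1 TPM in both groups.

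The genes did not single out the same libraries. Among WT alcohol libraries, replicate 1 was highest for Col1a2, Col3a1, Postn, Thbs1 and Des, replicate 4 for Col1a1, Timp1, Lox and Vim, and replicate 3 for Acta2. Among WT control libraries, replicate 2 was highest for 8 of the 10, all but Thbs1 and Lox. The 3 collagens summed to 9.38, 4.38, 4.00 and 7.93 TPM in WT alcohol libraries and to 2.09, 5.71, 2.52 and 1.84 TPM in WT control libraries, so control replicate 2 lay above alcohol replicates 2 and 3. When single libraries were left out, Postn passed every time (adjusted p = 0.00620 to 0.0227), as did Thbs1 (0.00275 to 0.0225). Without control replicate 2 all 7 tested genes passed, including Vim (adjusted p = 0.00206) and Col3a1 (0.0204), and Col3a1 also passed without alcohol replicate 3 (0.0421). The calls of the others rested on more libraries. Col1a2 did not pass without alcohol replicate 1 or 4 or control replicate 1, 3 or 4 (adjusted p = 0.0620 to 0.0887), nor did Des without alcohol replicate 1, 2 or 4 or control replicate 1 or 3 (0.0633 to 0.0890). Timp1 passed only with alcohol replicates 1, 2 and 4 and control replicates 1, 3 and 4 all present (0.0604 to 0.115 without each).

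Promoters of the 10 genes were read from RefSeq (GRCm38.p6, the mm10 assembly). A window was read for 7 of the 10 genes, not for Col1a1, Lox and Thbs1. Col3a1, Vim and Acta2 are among the 7 although they did not pass or were not tested. Postn had 2 windows, and the one further upstream (chr3:54359017-54359266) held no match. The 250 bases before the start site are given for Postn (the window next to the gene start), Timp1 and Des, because these passed in the filtered fit and their windows hold none of their own exons, with motif matches in capitals:

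Postn, chr3:54360857-54361106, plus strand: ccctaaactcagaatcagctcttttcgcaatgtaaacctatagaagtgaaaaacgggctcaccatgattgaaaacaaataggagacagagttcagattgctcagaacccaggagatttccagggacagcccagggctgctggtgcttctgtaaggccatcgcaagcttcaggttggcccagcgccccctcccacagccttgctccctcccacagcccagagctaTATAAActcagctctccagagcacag
Timp1, chrX:20869916-20870165, plus strand: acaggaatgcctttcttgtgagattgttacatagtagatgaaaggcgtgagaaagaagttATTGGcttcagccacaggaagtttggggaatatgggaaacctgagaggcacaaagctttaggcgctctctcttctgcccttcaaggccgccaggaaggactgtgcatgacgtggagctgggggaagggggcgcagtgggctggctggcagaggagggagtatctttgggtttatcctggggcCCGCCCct
Des, chr1:75360042-75360291, plus strand: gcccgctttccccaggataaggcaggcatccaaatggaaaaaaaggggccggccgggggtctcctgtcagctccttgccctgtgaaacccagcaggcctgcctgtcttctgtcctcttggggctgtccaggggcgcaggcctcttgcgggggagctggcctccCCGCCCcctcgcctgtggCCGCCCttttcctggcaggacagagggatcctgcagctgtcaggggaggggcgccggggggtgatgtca

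The capitals mark TATAAA (the TATA box, 26 bases before the Postn start), CCAAT read on the opposite strand (190 bases before the Timp1 start) and GGGCGG on the opposite strand (a GC box, 8 bases before the Timp1 start and 87 and 69 bases before the Des start). Both strands were searched, and no 2 of these matches overlap. Among the 7 genes TATAAA was found in 3, CCAAT in 3, GGGCGG in 3, the SMAD box CAGACA in 3 and the AP-1 site TGANTCA in 0. Over all 32851 promoter windows of the same length the shares were 12.4% for TATAAA, 33.8% for CCAAT, 32.7% for GGGCGG, 17.1% for CAGACA and 6.75% for TGANTCA. No motif among those searched was found in every one of Col1a2, Postn, Timp1 and Des, the genes past the test that had a window. GGGCGG was found in Col1a2, Timp1 and Des, and CCAAT in Col1a2 and Timp1.

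The wider matrix programme of WT liver was read from lists of related genes. Each count below stands beside 13.3% of all genes tested that rose and 17.9% that fell, or 8.30% and 10.1% with no filter. A gene that reached 1 TPM on 1 diet only had to differ to be tested, so counts that hold such genes are descriptions. Of 34 non-collagen matrix glycoproteins 17 were tested, 14 rose and none fell, with a median log2 fold change of 0.71 beside -0.05 over all genes tested. The count was 9 after rescaling without the major urinary protein genes. It was 1 in the joint fit of 14 liver libraries, where the wider spread of those labelled RageΔMye enters the error. With no filter 13 of 33 rose, and 3 of the 14 had reached 1 TPM on 1 diet only. Among them were Sparc, a collagen-binding protein (29.3 ± 5.48 TPM in WT alcohol liver and 15.8 ± 3.58 TPM in WT control liver, adjusted p = 0.00550), and its relative Sparcl1 (5.62 ± 1.97 and 2.17 ± 0.638 TPM, adjusted p = 0.00476). The matrix glycoprotein gene Ecm1 (92.7 ± 20.9 and 52.1 ± 8.20 TPM, adjusted p = 0.00549) and Emilin1, an elastic fibre protein (4.56 ± 1.28 and 2.06 ± 0.448 TPM, adjusted p = 0.00609), rose too. Of 21 other collagens 8 were tested, of which 4 rose and 1 fell (median 0.47). Those that rose included Col4a1 of basement membranes (6.93 ± 1.45 TPM in WT alcohol and 3.29 ± 1.56 TPM in WT control liver, adjusted p = 0.0112), Col6a3 (1.61 ± 0.615 and 0.721 ± 0.221 TPM, adjusted p = 0.0266) and Col6a1 (2.80 ± 0.608 and 1.53 ± 0.656 TPM, adjusted p = 0.0291). The chain gene of a minor fibrillar collagen, Col5a3, fell to 0.171 ± 0.0646 TPM in WT alcohol liver, against 2.33 ± 1.27 TPM in WT control liver (adjusted p = 0.00247). Col5a3 and Col6a3 had reached 1 TPM on 1 diet only. With no filter 4 of 20 rose and 1 fell, while Col6a3 (adjusted p = 0.0587) and Col6a1 (adjusted p = 0.0680) did not pass.

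Of 25 genes that process collagen 12 were tested, 2 rose and 2 fell, with a median of -0.11, which is near the shares over all genes. With no filter 6 of 25 rose and 2 fell, Serpinh1 did not pass (adjusted p = 0.0693), and Loxl2 had reached 1 TPM on 1 diet only. Serpinh1, the collagen chaperone HSP47, rose (4.19 ± 1.28 TPM in WT alcohol and 2.19 ± 0.750 TPM in WT control liver, adjusted p = 0.0283), as did the lysyl oxidase relative Loxl2 (1.04 ± 0.237 and 0.606 ± 0.0865 TPM, adjusted p = 0.0386). The procollagen proteinase gene Bmp1 fell (22.0 ± 3.43 and 30.7 ± 2.44 TPM, adjusted p = 0.0189), and so did the lysyl hydroxylase gene Plod1 (20.9 ± 3.01 and 28.9 ± 2.19 TPM, adjusted p = 0.0215). Of 28 matrix proteases and inhibitors 16 were tested, 9 rose and 3 fell (median 0.65). Of these 12, 6 had reached 1 TPM on 1 diet only, Plaur and Adamts1 among them, and with no filter 8 of 28 rose and 3 fell. Plaur, the urokinase receptor gene (1.64 ± 0.140 TPM in WT alcohol and 0.525 ± 0.102 TPM in WT control liver, adjusted p = 3.6e-04), Adamts1, which cleaves proteoglycans (1.77 ± 0.167 and 0.571 ± 0.183 TPM, adjusted p = 6.0e-04), and the lysosomal protease gene Ctsl (281 ± 19.7 and 172 ± 15.4 TPM, adjusted p = 0.00112) rose. Serpine2, a protease inhibitor gene, fell to 2.36 ± 0.648 TPM in WT alcohol liver, against 20.4 ± 7.02 TPM in WT control liver (adjusted p = 3.5e-05).

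Of 30 TGF-beta and PDGF pathway genes 15 were tested, 6 rose and 1 fell (median 0.17). Smad3 and 2 others of these 7 had reached 1 TPM on 1 diet only, and with no filter 10 of 29 rose and 1 fell. Tgfb1, the ligand (1.94 ± 0.284 TPM in WT alcohol and 1.01 ± 0.188 TPM in WT control liver, adjusted p = 0.00647), Ctgf, its matricellular target (2.83 ± 0.196 and 1.56 ± 0.328 TPM, adjusted p = 0.00495), and the PDGF receptor gene Pdgfra (2.89 ± 1.25 and 1.20 ± 0.150 TPM, adjusted p = 0.0107) rose. Smad3, a transducer of TGF-beta signals, fell (0.430 ± 0.0870 and 1.12 ± 0.423 TPM, adjusted p = 0.0127). Of 15 contractile genes 10 were tested, 5 rose and 1 fell (median 0.45). With no filter 2 of 15 rose and 1 fell, and Tagln did not pass (adjusted p = 0.0502). Flna (8.83 ± 0.996 TPM in WT alcohol and 4.25 ± 0.482 TPM in WT control liver, adjusted p = 5.9e-04), which cross-links actin, Cnn2 (5.14 ± 0.989 and 2.85 ± 0.830 TPM, adjusted p = 0.0146) and Tagln (8.91 ± 2.15 and 4.58 ± 1.94 TPM, adjusted p = 0.0184), both actin-binding, rose. Mylk, the myosin light chain kinase gene, fell (9.09 ± 0.523 and 12.9 ± 1.80 TPM, adjusted p = 0.0194). Actb, a cytoskeletal actin gene on the housekeeping list, rose as well (359 ± 36.1 and 205 ± 67.0 TPM, adjusted p = 0.00876), and Hprt of the same list fell (22.7 ± 1.49 and 31.2 ± 2.12 TPM, adjusted p = 0.0107).

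**Figure D3:**
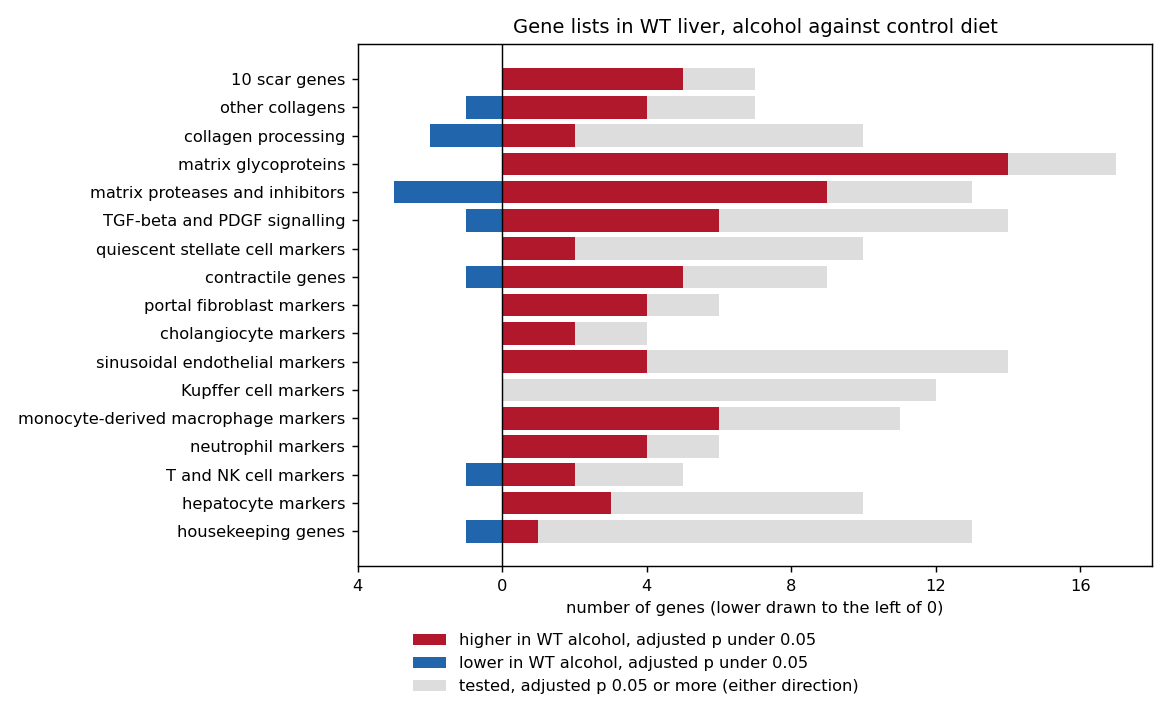
Number of genes per list in WT liver (x axis) that were higher (red, right of 0) or lower (blue, left of 0) on alcohol diet at adjusted p under 0.05, or tested without passing (grey, either direction). Matrix glycoproteins have 14 of 17 genes higher, collagen processing genes 2 higher and 2 lower of 12, and Kupffer cell markers 0 of 12 in either direction.

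Markers of the cells that could carry the 10 genes were read in the same way. Of 15 markers of quiescent stellate cells 10 were tested and 2 rose, Cygb (3.47 ± 1.07 TPM in WT alcohol and 1.75 ± 0.553 TPM in WT control liver, adjusted p = 0.0218) and Colec11 (60.7 ± 20.2 and 38.1 ± 5.28 TPM, adjusted p = 0.0432). The summed level of the list was 74.0 to 138 TPM in WT alcohol libraries against 54.4 to 73.3 TPM in WT control libraries. Colec11 alone was at 43.3 to 89.0 TPM and 33.3 to 44.4 TPM in these libraries, so the sums largely follow this gene. With no filter 1 of 15 rose, which is near the 8.30% of all genes, and neither Cygb (adjusted p = 0.0564) nor Colec11 (adjusted p = 0.0889) passed. Of 10 portal fibroblast markers 6 were tested and 4 rose, namely Gas6, Cd34, Il33 and Dpt, with sums of 54.6 to 87.1 TPM against 13.3 to 20.1 TPM. Gas6 alone was at 58.5 ± 12.3 TPM in WT alcohol liver and 9.99 ± 3.42 TPM in WT control liver (adjusted p = 5.0e-05), so the sums largely follow this gene. Cd34 and Il33 had reached 1 TPM on 1 diet only. With no filter 3 of 10 rose, with a median log2 fold change of 0.12 over the list, and Dpt did not pass (adjusted p = 0.102). Of 14 sinusoidal endothelial markers, all tested, 4 rose, namely Lyve1, Cdh5, Egfl7 and Pecam1, with overlapping sums of 128 to 279 TPM in WT alcohol libraries and 86.5 to 213 TPM in WT control libraries. With no filter 3 of 14 rose, without Pecam1 (adjusted p = 0.0550). Of 15 monocyte-derived macrophage markers 11 were tested and 6 rose, among them Cd14, Itgax, S100a4 and Fcgr1. Sums over the list were 68.7 to 141 TPM in WT alcohol libraries against 34.4 to 42.5 TPM in WT control libraries. Cd14 alone was at 59.7 ± 31.2 TPM in WT alcohol liver and 7.99 ± 2.24 TPM in WT control liver (adjusted p = 2.6e-04). The difference between the sums therefore largely follows this gene. With no filter 6 of 15 rose, with a median log2 fold change of 0.35 over the list. Neutrophil markers had 4 of 6 tested higher (Ngp, S100a9, S100a8 and Retnlg), with sums of 104 to 157 TPM against 31.6 to 79.8 TPM over the list. Cholangiocyte markers had 2 of 4 tested higher (Prom1 and Tspan8), with overlapping sums of 43.8 to 151 TPM against 23.1 to 76.7 TPM over the list. Prom1 (1.75 ± 0.979 TPM in WT alcohol liver) and Tspan8 (2.07 ± 1.85 TPM) were a small part of these sums. With no filter 6 of 11 neutrophil markers rose, without Retnlg (adjusted p = 0.0805), and 1 of 8 cholangiocyte markers, without Tspan8 (adjusted p = 0.113). Prom1, Tspan8, Ngp, Itgax and S100a4 had reached 1 TPM on 1 diet only, as had each of the 3 T and NK cell genes named next. T and NK cell markers had Gzmb and Gzma higher and Cd4 lower of 6 tested, with sums of 6.18 to 10.4 TPM against 4.52 to 6.22 TPM, and Kupffer cell markers had 0 of 12 past the limma test, C1qb and C1qc being closest (adjusted p = 0.0892 and 0.101).

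The part of these cell types in the levels of the 10 genes was not tested. Mesothelial markers were near 0, with sums of 0.0860 to 0.908 TPM in WT alcohol libraries and 0.148 to 0.647 TPM in WT control libraries. Hepatocyte markers had 3 of 10 tested higher (Fgb, Tat and Hnf4a, and 1 of 10 with no filter), with sums of 174081 to 192690 TPM in WT alcohol libraries against 140495 to 163426 TPM in WT control libraries. Beside them, all 16 female-biased liver genes rose, among them Cyp2c69, Cyp2c40 and Cyp3a44, and all 15 male-biased liver genes fell, among them Cyp4a12b, Cyp4a12a, Cyp2d9 and Mup12. Their summed levels were 6669 to 9413 TPM for the female-biased and 157 to 188 TPM for the male-biased list in WT alcohol libraries, against 9.38 to 73.9 TPM and 44861 to 68802 TPM in WT control libraries.

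Genes were ranked against Col1a1 over the 8 WT libraries by the root mean square difference of log2(TPM + 1) profiles with their means removed. The other scar genes described here and genes with Gm or Rik names were left out. Among the 9437 genes compared, the nearest were Tmem11 (0.093), Zfp1 (0.094), Pcolce (0.099), Rasl11b (0.10) and Cd9 (0.11). This scale understates the change of a low gene. For Col1a1 the log2 fold change with no filter was 0.35, at a ratio of mean TPM of 2.00. The ratios of the nearest genes were 1.21, 1.20, 1.37, 1.67 and 1.23 in the same order. Nearness here therefore does not mean a change by the same ratio. Pcolce encodes the enhancer of procollagen C-proteinase and was at 6.12 ± 1.70 TPM in WT alcohol liver and 4.48 ± 1.46 TPM in WT control liver (SD, n = 4 each).

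In the libraries labelled RageΔMye most of the 10 genes were listed at 0, and since housekeeping genes were listed at 0 there too, such a value is not read as absence. The alcohol libraries listed 9, 10 and 8 of the 10 genes at 0, and the control libraries 8, 7 and 6. Postn, Thbs1, Timp1, Lox and Acta2 were listed at 0 in all 6 libraries. Vim was listed at 0 in all 3 alcohol libraries, and at 16.8, 6.27 and 4.41 TPM in the control libraries. Col3a1 was likewise listed at 0 in all 3 alcohol libraries, and at 2.90, 1.64 and 3.46 TPM in the control libraries. Both reached 1 TPM on control diet only and had to differ to be tested, so the values below are descriptions. Alcohol libraries lay below all control libraries for both, as for 5.85% of the 10689 genes tested. Neither passed in a fit of these 6 libraries (adjusted p = 0.308 for Vim and 0.630 for Col3a1, unadjusted p = 0.00424 and 0.0252). In that fit 0.0374% of genes passed in either direction. In a joint fit of the 14 liver libraries, where the smaller spread of the WT libraries enters the error, the adjusted p was 8.4e-04 for Vim and 0.0130 for Col3a1. Sex-biased genes differed between these diets too. The 15 male-biased liver genes summed to 385 to 4392 TPM in the alcohol libraries against 14147 to 17336 TPM in the control libraries, all 15 with a negative log2 fold change and 1 past the test. The 16 female-biased genes summed to 192 to 786 TPM in the alcohol libraries against 0 to 43.6 TPM in the control libraries. The 4 Y-linked genes reached 0.276 to 1.74 TPM in the alcohol libraries and 3.16 to 4.50 TPM in the control libraries, while Xist was at 0.322 to 0.990 TPM in the alcohol libraries and 0 to 3.10 TPM in the control libraries. Unlike in WT, Xist did not separate the diets here, and Y-linked transcripts were listed on both. The sex of these libraries is therefore not settled, and diet and sex cannot be told apart. Col1a1 was at 0, 0 and 0.669 TPM in the alcohol libraries and at 0, 0.943 and 1.33 TPM in the control libraries. Col1a2 was at 1.60, 0 and 1.28 TPM in the alcohol libraries and listed at 0 in the 3 control libraries. Des was listed at 0 in the alcohol libraries and at 0, 0 and 2.14 TPM in the control libraries. The difference of the diet effect between WT and the libraries labelled RageΔMye was not tested.

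**Figure D4:**
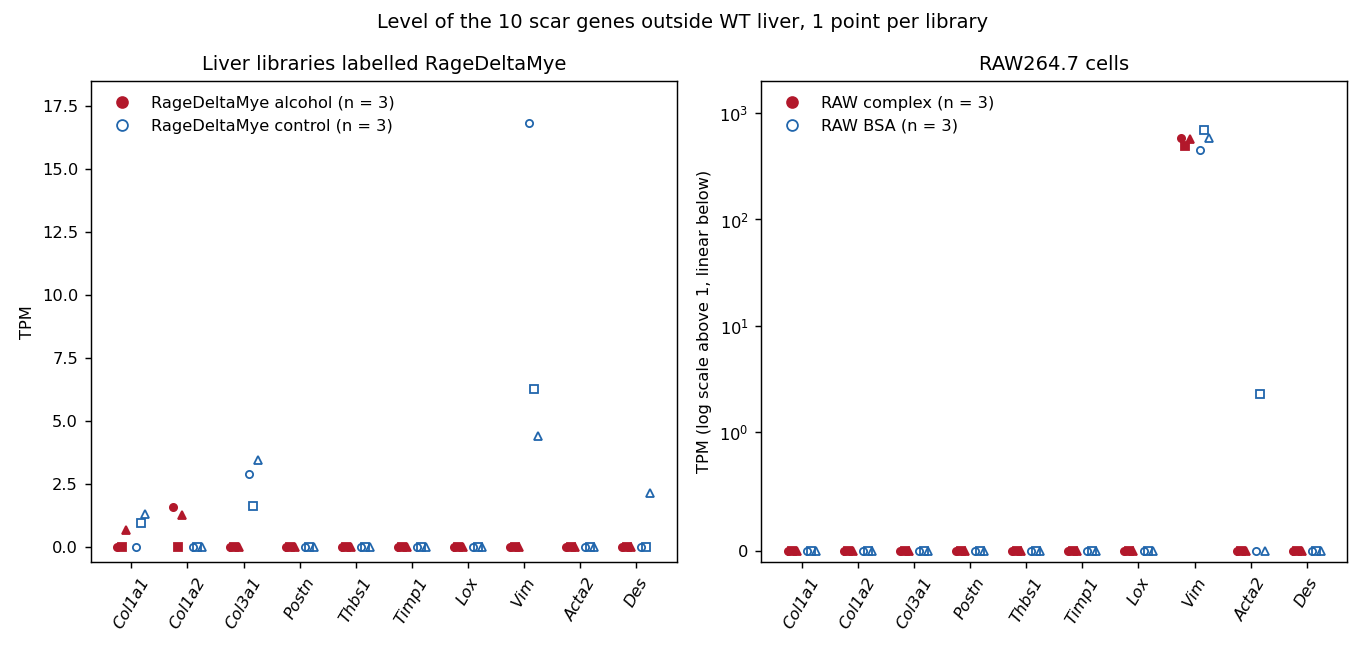
Level in TPM of the 10 genes in each library labelled RageΔMye (left, linear y axis) and in each RAW264.7 library (right, log y axis above 1 and linear below), with alcohol or complex in filled red and control or BSA in open blue (n = 3 per group). Vim stands between 449 and 695 TPM in RAW264.7 cells, while 5 of the 10 genes are listed at 0 in all 6 libraries labelled RageΔMye.

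RAW264.7 cells listed 8 of the 10 genes at 0 in all 6 libraries. A RAW264.7 library had up to 2 of 14 housekeeping genes at 0, so here too such a value is not read as absence. Vim was the exception, with 581, 490 and 572 TPM under the HMGB1 complex and 449, 695 and 588 TPM under BSA. The groups overlapped and Vim did not pass (log2 fold change -0.06, SE 0.18, adjusted p = 0.951), where 0.180% of the 10559 genes tested passed in either direction. Acta2 was listed at 0 in the complex libraries and at 0, 2.29 and 0 TPM in the BSA libraries.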

How the data were processed

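The 10 genes and the context lists were chosen with earlier results of these data known. Per the labels' protocols, a TruSeq Stranded mRNA kit was used, and the submitters' processing notes name mm10. Aligner, counter, strand setting and annotation: not given in the sources used here. The deposited values were taken to be TPM computed by the authors, since they have decimals and add up to 1000000 in each column. The headers name no unit, and 2 symbols occurred in duplicate. Depth is unknown, so no interval from counting is given. WT replicates were numbered in the order of their accessions.

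Deposited TPM were put on the log2(TPM + 1) scale, and genes whose mean reached 1 TPM in either group were tested with limma 3.58.1 (R 4.3.3, intensity trend), each comparison in a fit of its own groups, with Benjamini-Hochberg adjustment over all genes tested. Single genes under the filter were given exact permutation tests (scipy 1.17.1). The fits were tested on simulated data. Positions and opposite-strand exons came from GENCODE vM21. Genes named were the 10, up to 4 passing members per list with the smallest adjusted p (otherwise the 2 with the smallest p), the 5 nearest to Col1a1, Ager and Xist, except 1 gene that is not reported here. Alternatives were other pseudocounts (0.1 and 0.01), filters, normalizations, thresholds, library weights, a joint liver fit, each library left out and a replicate block.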

Additional observations from a re-analysis of the deposited data

Results flagged for a closer look

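Among the 78 named genes, 156 WT groups of 4 libraries were examined and 18 held a library far from the other 3 by Dixon's criterion, a criterion that chance meets in about 1 group in 20. Of the WT alcohol libraries, replicate 4 was far above for Vim (12.7 against 8.81 to 9.18 TPM), replicate 1 for Pdgfra (4.75 against 2.14 to 2.46) and Sparcl1 (8.54, with the lowest at 4.34), and replicate 3 for Bmp1 (27.1 against 19.6 to 20.8) and Cyp4a12b (0.0533 against 0 in each other). Replicate 1 was far below for Cdh5 (7.71 against 13.3 to 14.3 TPM). WT control replicate 2 was far above the other controls for Vim (11.9 against 4.29 to 4.86 TPM), Col1a1 (0.827 against 0.207 to 0.234), Serpinh1 (3.31 against 1.71 to 1.87), Cnn2 (4.09 against 2.39 to 2.50), Dpt (7.27 against 2.32 to 3.14), Zfp1 (8.74 against 5.99 to 6.43) and Xist (0.135 against 0.00165 to 0.00925). WT control replicate 4 was far above the other controls for Pecam1 (14.5 against 5.38 to 6.54 TPM), Lyve1 (6.89 against 2.38 to 2.92), Col4a1 (5.63 against 2.47 to 2.55) and Flna (4.97 against 3.97 to 4.04), and WT control replicate 3 for Smad3 (1.75 against 0.850 to 0.936). What sets these libraries apart was not tested.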

How the results depend on the processing

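Of the 10 genes 5 rose in WT liver, and 3 with no filter, 1 with a filter at 5 TPM (2 tested), 2 in the joint fit of 14 libraries, 2 at adjusted p under 0.01, 0 with an added 2-fold minimum on the log2(TPM + 1) scale and 2 to 7 with each library left out; all 7 tested genes kept a positive log2 fold change in every alternative run. Of all genes, 3042 passed in WT liver, and 1881 with a filter at 5 TPM, 471 in the joint fit, 1450 at adjusted p under 0.01, 680 with the 2-fold minimum and 2055 to 3469 with each library left out. Major urinary protein genes held 0.177% to 0.251% of TPM in WT alcohol and 7.26% to 10.9% in WT control libraries. Rescaling without them moved the median log2 fold change of all genes to -0.17, against -0.05, and 25.8% of the passing genes were then higher, against 42.6%; Des did not pass (adjusted p = 0.0567), and matrix glycoproteins had 9 higher instead of 14. In the joint fit, whose error takes in the wider spread of the libraries labelled RageΔMye, the matrix glycoproteins had 1 and other collagens 0 past the test. In libraries labelled RageΔMye 4 genes passed, and 0 with a pseudocount of 0.01, 9 with a filter at 5 TPM, 7 after quantile normalization, 664 in the joint fit, 0 at adjusted p under 0.01 and 0 to 5 with each library left out. In RAW264.7 cells 19 passed, 7 at adjusted p under 0.01 and 2 to 9 with each library left out; the log2 fold change of Vim, -0.06, was 0.021 without complex replicate 2 and 0.088 without BSA replicate 2, within a range of -0.23 to 0.088 over the libraries left out. The cause of these changes was not tested. Same-numbered libraries did not deviate together (correlations of -0.0254 to 0.0181 over the 6 pairs), and with the replicate block limma called 0 genes in the RageΔMye comparison (622 at unadjusted p under 0.05) and 0 in that of RAW264.7 cells (705).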
